A study of Mus musculus with 39 samples.

Results

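The BCL2 family genes Bcl2, Bcl2l1, Mcl1, Bak1, Bcl2l11, Bid, Bbc3, Pmaip1 and Bmf were measured in liver, bone marrow and spleen of mice kept under reduced oxygen. Members were the probe sets that the array annotation names by exactly 1 of 10 listed family symbols. There were 30 such probe sets among the 45101 of the array, for 9 of the 10 genes. Probe sets with 1 symbol named 18193 genes in all. Bax, the remaining gene, was not analysed here. Mcl1 had 6 probe sets, Bcl2 and Bcl2l11 5 each, Bcl2l1 4, Bid and Bmf 3 each, Bak1 2, and Bbc3 and Pmaip1 1 each. A probe set is a group of short oligonucleotides that reports 1 transcript or a group of similar transcripts.

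BCL2 family proteins control permeabilisation of the outer mitochondrial membrane, the step that releases cytochrome c and activates caspases. The anti-apoptotic members BCL2, BCL-XL (Bcl2l1) and MCL1 hold the pore-forming members BAX and BAK (Bak1) in check. The BH3-only members BIM (Bcl2l11), BID, PUMA (Bbc3), NOXA (Pmaip1) and BMF sense stress and either neutralise the anti-apoptotic proteins or activate the pore formers. Lymphocytes depend on BCL2 and MCL1 and are removed by BIM, maturing erythroid cells depend on BCL-XL, and hepatocytes rely on BCL-XL together with MCL1.

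All mice were B6C3F1, a hybrid of C57BL/6 and C3H, and all groups were sampled at 2 hours, after ketamine and acepromazine anaesthesia and cervical dislocation. Liver had 8 vehicle and 8 hypoxia samples, spleen 8 and 8, and bone marrow 3 and 4, with 1 array per sample. The titles call the control arm vehicle without naming a substance, and the treatment label calls the other arm reduced oxygen without giving an oxygen level. Sex and age of the mice, and whether samples came from separate mice, are not stated in the sources used here, so p-values measure only the spread between these samples, which may be technical. Liver samples were part of the left lateral lobe, spleen samples part of a cross-section, and marrow came from the right humerus.

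Values are log2 of the deposited intensity, and every change is hypoxia minus vehicle on that scale with its standard error (SE). A probe set was called at a Benjamini-Hochberg adjusted p under 0.05 from limma, fitted in each tissue over 24461 probe sets. Probe sets whose mean lay below the 30th percentile of the tissue were treated as dim and not tested. Hepatocyte markers averaged 14.3 in vehicle liver against 5.20 in marrow and 5.47 in spleen, neutrophil markers 13.98 in marrow against 4.93 in liver, and B cell markers 11.5 in spleen against 4.98 in liver, so the arrays followed their tissue labels. Array medians were 5.21 to 5.33 in liver, 6.22 to 6.29 in marrow and 6.16 to 6.20 in spleen, so levels are set against each other only within a tissue. Liver arrays numbered 1 to 4 had a 30th percentile of 4.15 to 4.23 and those numbered 5 to 8 of 4.28 to 4.30, without overlap, while in spleen these ranges overlapped (4.70 to 4.77 and 4.76 to 4.84). The labels name no batch, and values within each set of numbers are given beside the main called results.

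One spleen stood apart. In hypoxia spleen replicate 4 the B cell markers averaged 9.62, against 10.96 to 11.48 in the other 7 hypoxia spleens, and the T cell markers 7.82 against 9.04 to 9.69. Its erythroid markers averaged 11.61, against 10.29 to 10.94 in the others. Its removal changed the spleen calls of Bcl2 and Bid, and values without it stand beside each gene measured in spleen. In bulk tissue, fewer cells of a type and less RNA per cell cannot be told apart.

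In liver the family split by gene. Bcl2l1 was higher under hypoxia and Bbc3, 1 Bmf probe set and most Mcl1 probe sets were lower, the Bmf one falling to a level under the dim limit. In spleen Bbc3, 1 Bmf and all 5 Bcl2l11 probe sets were higher, and 4 Mcl1 probe sets were lower. In bone marrow 1 Bmf, 1 Bcl2l11 and 1 Mcl1 probe set were higher and no member was lower.

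In liver 9 of 23 tested member probe sets were called, 3 higher and 6 lower, which is 39.1% against 10.7% of all probe sets tested. Among the 6 lower, Bmf 1454880_s_at had a hypoxia mean under the dim limit and was tested only through its vehicle values. Over all probe sets 4.51% were higher and 6.2% lower. The calls fell on 4 of the 8 genes tested, Bbc3, Bcl2l1, Bmf and Mcl1, and probe sets of a gene are not independent. In bone marrow 3 of 29 were called, all higher, which is 10.3% against 6.14% of all (2.74% higher and 3.4% lower), on Bcl2l11, Bmf and Mcl1. In spleen 11 of 27 were called, 7 higher and 4 lower, which is 40.7% against 20.6% of all (8.5% higher and 12.1% lower), on Bbc3, Bcl2l11, Bmf and Mcl1. The median change of the tested members was -0.03 in liver, 0.13 in marrow and 0.16 in spleen, and over all probe sets it lay within 0.02 of 0 in each tissue. Without hypoxia spleen replicate 4, 11 members were higher and 4 lower, among 5123 called probe sets (2152 higher and 2971 lower). With the replicate number as a block, which treats same-numbered livers as pairs, 4 liver members were higher and 8 lower, among 4083 called probe sets. All 9 liver calls kept their direction within replicates 1 to 4 and within 5 to 8, where 3 and 9 of them were called. All 11 spleen calls did so too, with 4 and 10 called. These sets are parts of the arrays that gave the calls, so the kept direction is no separate support. Over all 24461 probe sets, replicates 1 to 4 and 5 to 8 gave 1349 and 2981 calls in liver. In spleen they gave 1283 and 6162.

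**Figure D1:**
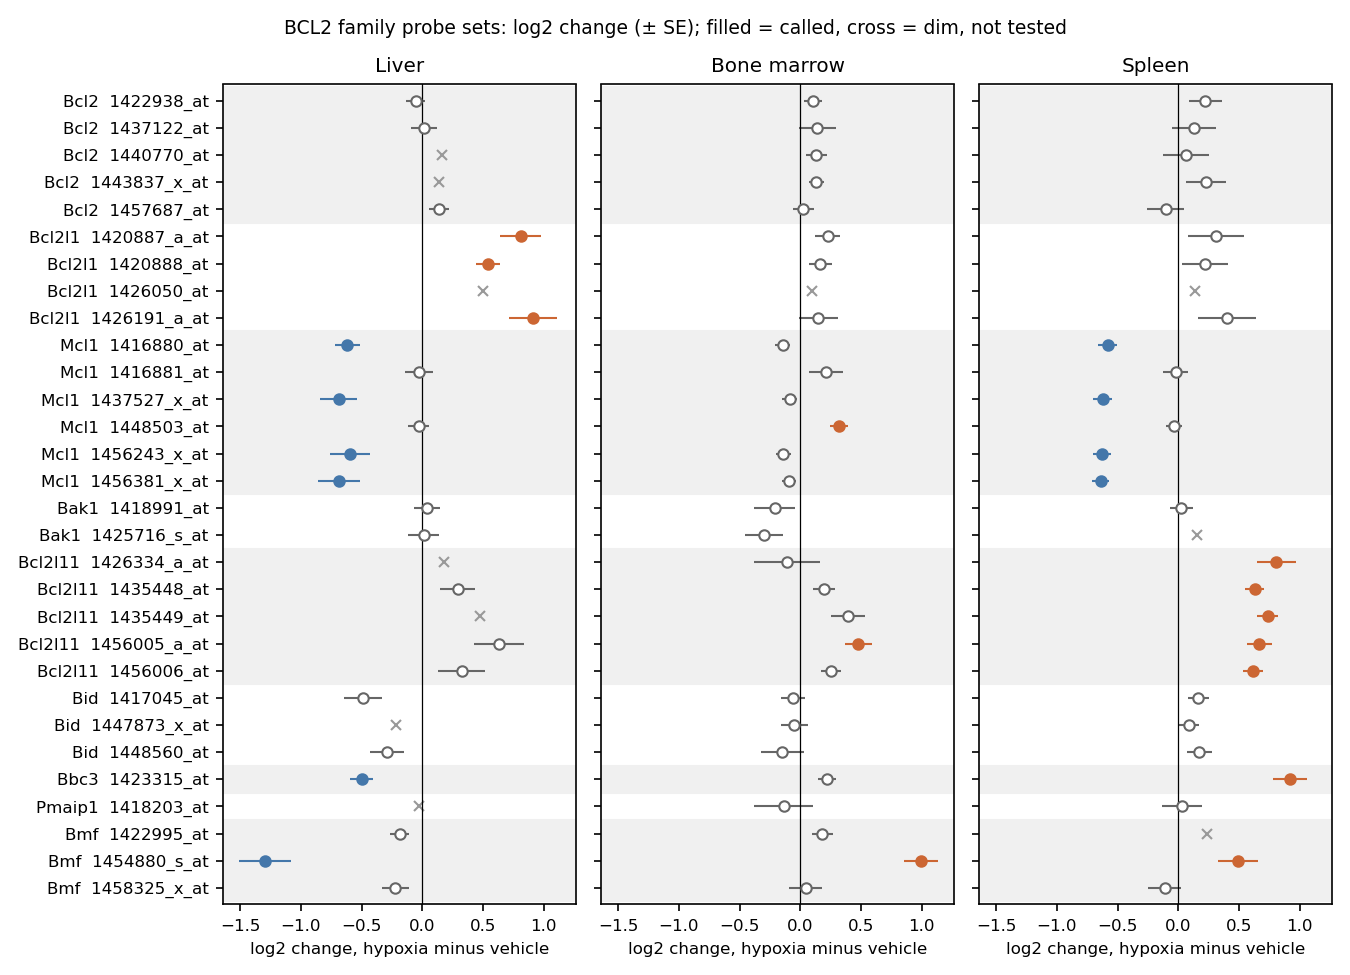
Log2 change, hypoxia minus vehicle, of the 30 member probe sets in liver, bone marrow and spleen, with bars for the SE. Filled points were called (orange higher, blue lower), open points were tested and not called, and crosses were dim and not tested. The 4 Mcl1 probe sets at -0.58 to -0.69 in liver and spleen stand beside 2 near 0, and Bcl2l11 in spleen lies at 0.61 to 0.81 in all 5 probe sets.

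Bcl2, the founding anti-apoptotic member, had no call in any tissue in the main fits. In spleen most of its probe sets passed as higher with the B cell markers as a covariate, as given below. Its brightest liver probe set (1422938_at) ran from 5.79 to 6.16 with a median of 5.99 in vehicle and from 5.65 to 6.12 with a median of 5.96 in hypoxia, and the groups overlapped almost fully. In marrow the brightest probe set (1457687_at) read 8.67, 8.31 and 8.49 in vehicle and 8.47, 8.52, 8.52 and 8.54 in hypoxia, a change of 0.02 ± 0.09 (adjusted p = 0.906). In spleen the same probe set ran from 9.80 to 10.36 (median 10.20) in vehicle and from 9.26 to 10.59 (median 10.11) in hypoxia, with a change of -0.10 ± 0.15 (adjusted p = 0.686). The 5 spleen probe sets ranged from -0.10 to 0.23. The lowest hypoxia value, 9.26, belonged to replicate 4, the spleen of low lymphocyte markers. Without that spleen 2 of the 5 Bcl2 probe sets passed the threshold, 1422938_at at 0.34 (adjusted p = 0.0190) and 1443837_x_at at 0.36 (adjusted p = 0.0462).

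Bcl2l1, which encodes BCL-XL, rose in liver. Its brightest probe set (1420888_at) ran from 8.31 to 8.78 (median 8.57) in vehicle livers and from 8.71 to 9.39 (median 9.13) in hypoxia livers, and 7 of 8 hypoxia livers lay above every vehicle liver. The mean went from 8.54 ± 0.16 (SD, n = 8) to 9.08 ± 0.22 (SD, n = 8), a rise of 0.54 ± 0.10 or 1.45-fold (adjusted p = 0.000789). Probe set 1420887_a_at rose by 0.81 ± 0.17 (adjusted p = 0.00337) and 1426191_a_at by 0.91 ± 0.20 (adjusted p = 0.00526), and the fourth, 1426050_at, was dim. By an exact Wilcoxon test 1426191_a_at missed the threshold (adjusted p = 0.0659). The brightest probe set changed by 0.42 within replicates 1 to 4 (adjusted p = 0.124) and by 0.66 within 5 to 8 (adjusted p = 0.00248).

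In the other tissues Bcl2l1 was not called. In marrow the brightest probe set read 10.73, 10.96 and 10.90 in vehicle and 10.89, 10.96, 11.04 and 11.22 in hypoxia, a change of 0.16 ± 0.09 (adjusted p = 0.358). In spleen it ran from 10.05 to 11.55 (median 10.48) in vehicle and from 10.34 to 11.29 (median 10.75) in hypoxia, a change of 0.22 ± 0.19 (adjusted p = 0.47). The vehicle spleens thus spanned more than the change, and the 3 tested spleen probe sets lay between 0.22 and 0.40. The brightest was at 0.14 with hypoxia spleen replicate 4 left out (adjusted p = 0.659). Leaving out vehicle spleen replicate 2 brought 1426191_a_at to 0.59 (adjusted p = 0.0281).

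**Figure D2:**
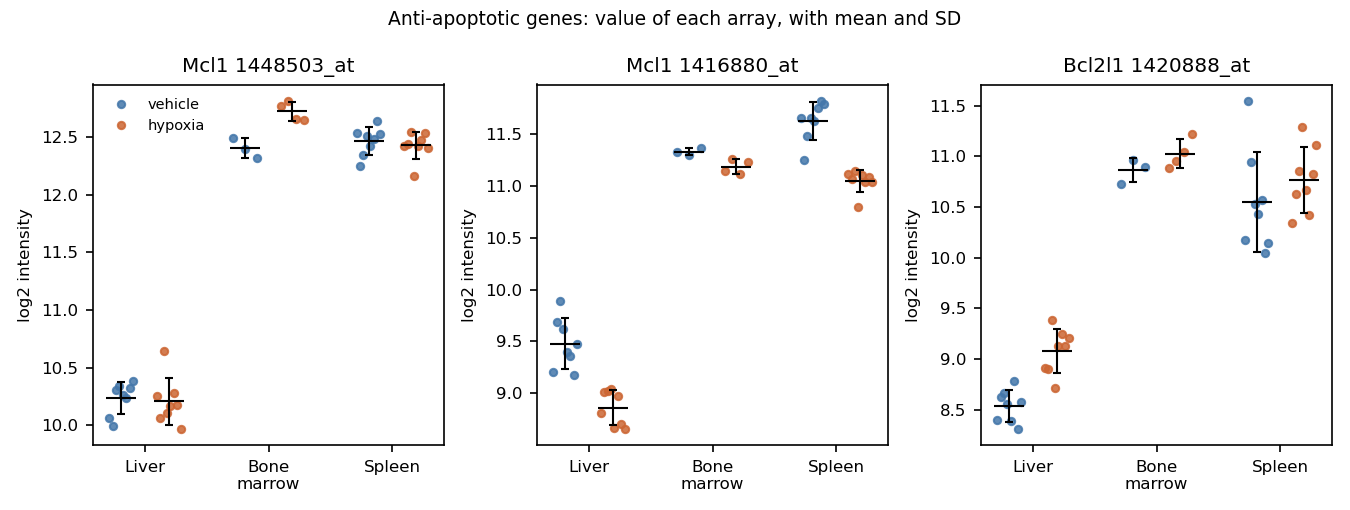
Log2 intensity of each array for 2 Mcl1 probe sets and the brightest Bcl2l1 probe set, in vehicle (blue) and hypoxia (orange), with the mean and SD of each group. Mcl1 1448503_at overlaps in liver and spleen while Mcl1 1416880_at does not, and Bcl2l1 is higher in 7 of 8 hypoxia livers than in every vehicle liver.

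Mcl1 encodes a short-lived anti-apoptotic protein, and its probe sets gave different answers. The brightest one in liver (1448503_at) ran from 9.99 to 10.39 (median 10.28) in vehicle and from 9.97 to 10.65 (median 10.17) in hypoxia, a change of -0.03 ± 0.09 (adjusted p = 0.890). By contrast 1416880_at ran from 9.18 to 9.89 (median 9.44) in vehicle and from 8.66 to 9.04 (median 8.89) in hypoxia, with no overlap. It fell by 0.62 ± 0.10 (adjusted p = 0.000435), by 0.63 within replicates 1 to 4 (adjusted p = 0.0259) and by 0.60 within 5 to 8 (adjusted p = 0.00285). Another 3 probe sets, 1437527_x_at, 1456243_x_at and 1456381_x_at, also fell in liver, by 0.69, 0.60 and 0.69 (adjusted p = 0.00556, 0.0246 and 0.0123). Within replicates 1 to 4 they were at -0.70, -0.68 and -0.75 (adjusted p = 0.0507, 0.0515 and 0.0434). Without vehicle liver 2, or hypoxia liver 7 or 8, the call of 1456243_x_at was lost (adjusted p up to 0.0545). The suffix _x marks probes that can match other transcripts, and 1416880_at does not carry it. The sixth, 1416881_at, lay at -0.03 ± 0.11 (adjusted p = 0.931).

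The same split of Mcl1 appeared in spleen. There 1448503_at ran from 12.25 to 12.64 (median 12.50) in vehicle and from 12.16 to 12.55 (median 12.43) in hypoxia, a change of -0.04 ± 0.07 (adjusted p = 0.739). Probe set 1416880_at ran from 11.26 to 11.82 (median 11.65) in vehicle and from 10.80 to 11.15 (median 11.08) in hypoxia. It fell by 0.58 ± 0.08 (adjusted p = 4.51e-05), and the 3 _x probe sets fell by 0.62 to 0.64 (adjusted p = 5.88e-06 to 2.00e-05), each without overlap of the groups. Within replicates 1 to 4 the change of 1416880_at was -0.48 (adjusted p = 0.0548) and that of 1437527_x_at -0.49 (adjusted p = 0.0531), both short of the threshold, and within 5 to 8 all 4 were called. Without hypoxia spleen replicate 4, 1416880_at fell by 0.55 (adjusted p = 5.99e-05). Probe set 1416881_at lay at -0.02 ± 0.10.

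In marrow the only Mcl1 call fell on the brightest probe set, which was not called in liver or spleen. Probe set 1448503_at read 12.49, 12.40 and 12.32 in vehicle and 12.77, 12.81, 12.66 and 12.65 in hypoxia, so all 4 hypoxia marrows lay above the 3 vehicle marrows. It rose by 0.32 ± 0.07 (adjusted p = 0.0379), a call that was lost when any of 5 of the 7 marrows was left out (vehicle 2 or 3, hypoxia 1, 2 or 3; adjusted p up to 0.116). Probe set 1416880_at read 11.33, 11.30 and 11.37 in vehicle and 11.14, 11.26, 11.11 and 11.23 in hypoxia, a change of -0.15 ± 0.06 (adjusted p = 0.213). The 3 _x probe sets lay at -0.14 to -0.09 and 1416881_at at 0.21 (adjusted p = 0.430), none called. The response of 1448503_at was not shown to differ between tissues. Liver minus marrow it was at -0.35 (adjusted p = 0.199) and spleen minus marrow at -0.36 (adjusted p = 0.430).

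The within-array difference of 1448503_at minus 1416880_at is given as a description, without a test, since the pair was chosen after these values were seen. It went from 0.76 ± 0.28 to 1.35 ± 0.21 in liver (SD, n = 8 each), from 1.07 ± 0.11 to 1.54 ± 0.09 in marrow (SD, n = 3 and 4) and from 0.84 ± 0.09 to 1.38 ± 0.05 in spleen (SD, n = 8 each). The positions of the probes in the transcript were not used here.

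Bak1, the only pore-forming member measured, had no call. Its brightest probe set (1418991_at) ran from 5.56 to 6.29 in vehicle livers and from 5.78 to 6.17 in hypoxia livers, a change of 0.04 ± 0.11 (adjusted p = 0.885). In spleen it ran from 7.84 to 8.35 and from 7.80 to 8.56, a change of 0.02 ± 0.09 (adjusted p = 0.900), or 0.01 (adjusted p = 0.957) when hypoxia spleen replicate 4 was left out. In marrow it read 9.0, 8.41 and 8.51 in vehicle and 8.45, 8.34, 8.18 and 8.76 in hypoxia, a change of -0.21 ± 0.17 (adjusted p = 0.512).

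Among the BH3-only genes, the sequences upstream of the 3 genes with calls are shown because each had a probe set called higher in spleen. The Bmf call there came from 1 of its 3 probe sets and was lost in 10 of 16 fits that left out 1 array. The sequences are the bases before RefSeq transcript starts in the table of assembly GRCm38.p6, on the strand of the gene. The array files name no build. Short motifs were searched on both strands in the 250 bases before each start of 8 member genes (15 windows), the hypoxia response element core ACGTG, the FOXO site core GTAAACA, the AP-1 site TGANTCA and the glucocorticoid response element, and the E-box CACGTG, which contains ACGTG. Capitals mark matches.
Bcl2l11, chr2:128125788-128126037, plus strand: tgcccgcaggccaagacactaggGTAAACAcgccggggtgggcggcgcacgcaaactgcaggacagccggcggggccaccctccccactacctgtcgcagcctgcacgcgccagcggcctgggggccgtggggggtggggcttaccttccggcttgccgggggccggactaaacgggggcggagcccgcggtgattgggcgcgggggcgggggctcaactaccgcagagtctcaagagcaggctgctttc
Bbc3, chr7:16310083-16310112, plus strand: tctggcgggttTGTTTACaaacaatggggt
Bbc3, chr7:16310355-16310384, plus strand: gcggggcgggcgCACGTGgcggcgtcgagg
Bmf, chr2:118549687-118549936, minus strand: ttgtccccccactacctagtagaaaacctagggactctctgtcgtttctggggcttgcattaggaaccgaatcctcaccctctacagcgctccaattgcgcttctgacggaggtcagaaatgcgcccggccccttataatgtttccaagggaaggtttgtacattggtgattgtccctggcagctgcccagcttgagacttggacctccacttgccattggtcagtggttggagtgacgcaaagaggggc

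The FOXO core, the binding sequence of FOXO transcription factors that are known to act on Bcl2l11 and Bbc3, lay 227 bases before the first Bcl2l11 start and 167 bases before a Bbc3 start, there on the opposite strand. These were the only 2 of 15 windows that held it, against 3.17% of 32851 windows of all genes. Windows of Pmaip1, which was also measured, were left out of the 15, and whether they hold these motifs is not reported here. Counts over the 15 windows therefore cover only the other 8 measured genes. The Bbc3 E-box, 64 bases before a start, held the only match to the hypoxia core among the 15 windows, which 16.6% of all windows contained (the E-box, 6.02%). The AP-1 site, in 6.75% of all windows, and the glucocorticoid element, in 0.00913%, were in none of the 15 windows. The window of Bax, not one of the 15, also held the E-box, 9 bases before its start. The printed Bmf window held no match. A match is a run of letters and does not show binding.

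Bcl2l11 encodes BIM, the BH3-only protein that removes lymphocytes deprived of survival signals. It rose in spleen in all 5 probe sets. The brightest one (1456005_a_at) ran from 9.79 to 10.26 (median 9.94) in vehicle and from 10.25 to 10.95 (median 10.59) in hypoxia, and 7 of 8 hypoxia spleens lay above every vehicle spleen. The mean went from 9.98 ± 0.16 (SD, n = 8) to 10.64 ± 0.25 (SD, n = 8), a rise of 0.67 ± 0.10 or 1.59-fold (adjusted p = 0.000170). It was 0.64 within replicates 1 to 4 (adjusted p = 0.0539) and 0.69 within 5 to 8 (adjusted p = 0.000298). Leaving out hypoxia spleen replicate 4 gave 0.72 (adjusted p = 3.66e-05). The other 4 probe sets rose by 0.61 to 0.81 (adjusted p = 1.51e-05 to 0.00135), and 3 of them, 1435448_at, 1435449_at and 1456006_at, had no overlap between groups.

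In marrow the same Bcl2l11 probe set read 9.57, 9.58 and 9.85 in vehicle and 9.89, 10.20, 10.28 and 10.20 in hypoxia, without overlap. It rose by 0.48 ± 0.11 (adjusted p = 0.0439). That call was lost in 6 of the 7 fits that left out 1 marrow, all but the one without hypoxia replicate 1 (adjusted p up to 0.136), and with no dim filter (adjusted p = 0.0546). The other 4 marrow probe sets lay between -0.11 and 0.40 and were not called. In liver it ran from 5.72 to 7.18 (median 6.43) in vehicle and from 6.44 to 8.02 (median 6.99) in hypoxia, a difference of 0.63 ± 0.21 that missed the threshold (adjusted p = 0.0544). It was 0.53 within replicates 1 to 4 (adjusted p = 0.316) and 0.73 within 5 to 8 (adjusted p = 0.0306). With the replicate number as a block, this liver value passed (adjusted p = 0.00443). It also passed with the array set as a term (adjusted p = 0.0182), with quantile normalization (adjusted p = 0.0373), and without vehicle liver replicate 4 (0.74, adjusted p = 0.0237), hypoxia replicate 1 or hypoxia replicate 5.

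Bbc3 encodes PUMA, a BH3-only protein best known as a target of p53 and induced also by FOXO factors and glucocorticoids. It moved in opposite directions in liver and spleen. Liver values of its single probe set (1423315_at) ran from 7.63 to 8.07 (median 7.93) in vehicle and from 7.05 to 7.76 (median 7.40) in hypoxia, and 7 of 8 hypoxia livers lay below every vehicle liver. The mean went from 7.89 ± 0.15 (SD, n = 8) to 7.39 ± 0.23 (SD, n = 8), so it fell by 0.50 ± 0.10 (adjusted p = 0.00177). Within replicates 1 to 4 it fell by 0.43 (adjusted p = 0.126) and within 5 to 8 by 0.57 (adjusted p = 0.00829).

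Spleen values of Bbc3 ran from 7.42 to 8.12 (median 7.70) in vehicle and from 7.85 to 8.97 (median 8.73) in hypoxia. The rise was 0.92 ± 0.14 or 1.89-fold (adjusted p = 0.000165), the largest of the brightest member probe sets in spleen. The 1 hypoxia spleen inside the vehicle range was replicate 4, and without it the rise was 1.03 (adjusted p = 2.56e-06). It was 0.79 within replicates 1 to 4 (adjusted p = 0.113) and 1.05 within 5 to 8 (adjusted p = 0.000277). Marrow values were 7.59, 7.83 and 7.78 in vehicle and 7.96, 7.99, 7.87 and 7.98 in hypoxia, a difference of 0.22 ± 0.07 without overlap that was not called (adjusted p = 0.137).

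**Figure D3:**
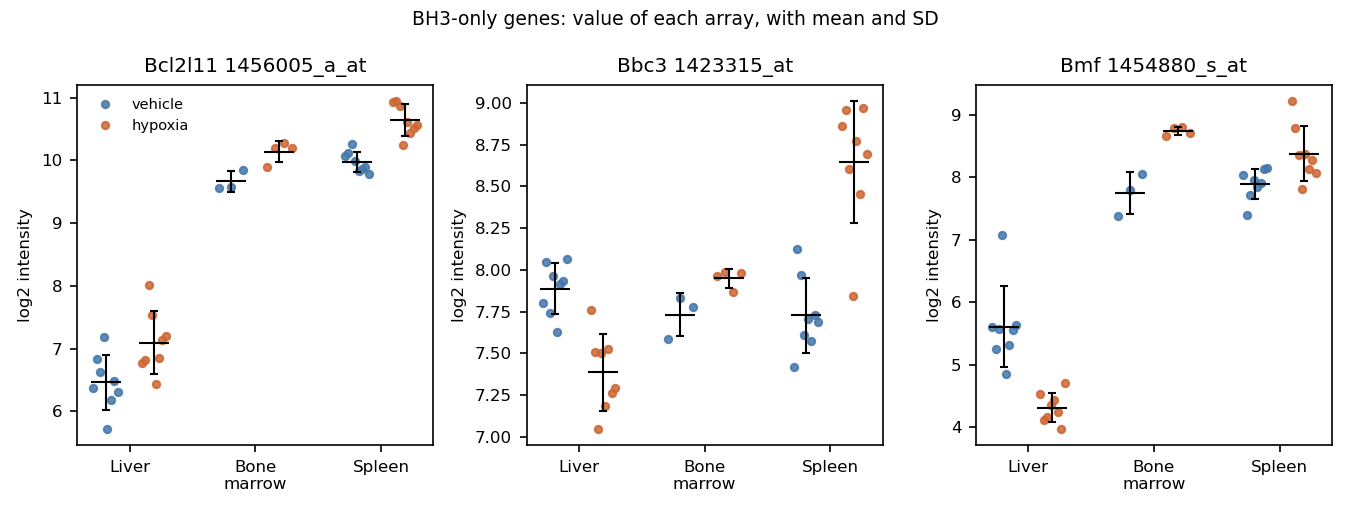
Log2 intensity of each array for 1 probe set each of Bcl2l11, Bbc3 and Bmf in liver, bone marrow and spleen, in vehicle (blue) and hypoxia (orange), with the mean and SD of each group. Bbc3 and Bmf are lower under hypoxia in liver and higher in spleen, and Bmf is also higher in all 4 hypoxia marrows. The Bmf mean of the hypoxia livers lies under the dim limit.

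Bmf encodes a BH3-only protein tied to the cytoskeleton that neutralises BCL2 and BCL-XL. Its calls come from 1 of its 3 probe sets (1454880_s_at). In liver that probe set ran from 4.85 to 7.08 (median 5.56) in vehicle and from 3.98 to 4.71 (median 4.30) in hypoxia, without overlap. It fell by 1.29 ± 0.21 (adjusted p = 0.000410), from 5.61 ± 0.65 to 4.32 ± 0.24 (SD, n = 8 each). The hypoxia mean lay under 4.50, the level below which probe sets were treated as dim, so this probe set was tested in liver only through its vehicle values and the size of its fall there is a description near the low end of the signal. The vehicle value of 7.08 was replicate 4, with the other 7 at 4.85 to 5.64, and without it the probe set fell by 1.08 (adjusted p = 1.23e-05). Within replicates 1 to 4 it fell by 1.59 (adjusted p = 0.0192) and within 5 to 8 by 1.00 (adjusted p = 0.00765).

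In marrow Bmf 1454880_s_at read 7.38, 7.80 and 8.05 in vehicle and 8.65, 8.79, 8.80 and 8.71 in hypoxia. It rose by 0.99 ± 0.14 or 1.99-fold (adjusted p = 0.00774), with no overlap. In spleen it ran from 7.40 to 8.14 (median 7.93) in vehicle and from 7.81 to 9.22 (median 8.32) in hypoxia, a rise of 0.49 ± 0.16 (adjusted p = 0.0425). That call was lost when vehicle spleen 2, 3, 4, 5 or 6 or hypoxia spleen 1, 2, 3, 5 or 7 was left out, 10 of 16 such fits (adjusted p up to 0.0780). It was also lost with no dim filter (adjusted p = 0.0512), by an exact Wilcoxon test (adjusted p = 0.0670), within replicates 1 to 4 (0.77, adjusted p = 0.156) and within 5 to 8 (0.21, adjusted p = 0.157). The 6 spleens whose removal kept it included hypoxia replicate 4, without which it was 0.57 (adjusted p = 0.0135).

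The other 2 Bmf probe sets were not called in any tissue, though 1422995_at, at -0.19 in liver, passed there with the replicate block (adjusted p = 0.0350). Probe set 1458325_x_at, the brightest in liver, lay at -0.22 ± 0.11 in liver, 0.04 ± 0.14 in marrow and -0.11 ± 0.14 in spleen. The within-array difference of 1454880_s_at minus 1458325_x_at, also chosen after the values were seen, shifted by -1.07 in liver, 0.95 in marrow and 0.60 in spleen, a description without a test. The suffix _s marks probes shared by several transcripts.

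Bid, which links death receptors to the mitochondrial pathway after cleavage by caspase 8, missed the threshold in every tissue in the main fits. Its brightest probe set (1417045_at) ran from 6.95 to 8.08 (median 7.53) in vehicle livers and from 6.60 to 7.60 (median 6.95) in hypoxia livers, a difference of -0.49 ± 0.16 (adjusted p = 0.0508). It was -0.50 within replicates 1 to 4 (adjusted p = 0.0847) and -0.47 within 5 to 8 (adjusted p = 0.0340). It passed with the replicate block (adjusted p = 0.00286), with the array set as a term (adjusted p = 0.00215), with quantile normalization (adjusted p = 0.0178), with 1 probe set per gene (adjusted p = 0.0490), and when hypoxia liver 3 or 4 or vehicle liver 5 or 6 was left out. In marrow it read 9.98, 9.60 and 9.77 in vehicle and 9.76, 9.76, 9.60 and 9.77 in hypoxia. In spleen it ran from 9.23 to 9.63 and from 9.10 to 9.74, a difference of 0.16 ± 0.09 (adjusted p = 0.214). Without hypoxia spleen replicate 4, which held the 9.10, it passed at 0.23 (adjusted p = 0.0264). Probe set 1448560_at lay at -0.29 in liver (adjusted p = 0.222) and at 0.17 in spleen (adjusted p = 0.273). Without hypoxia spleen replicate 4 its spleen value was 0.25 (adjusted p = 0.0458).

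Pmaip1, which encodes NOXA, the BH3-only partner of MCL1, was dim in liver at 3.37 in vehicle and 3.34 in hypoxia. In marrow it read 6.68, 6.77 and 7.65 in vehicle and 6.55, 6.91, 6.87 and 7.25 in hypoxia, a difference of -0.14 ± 0.25 (adjusted p = 0.787). In spleen it ran from 8.02 to 8.84 and from 7.47 to 8.84, a difference of 0.03 ± 0.17 (adjusted p = 0.929). Without hypoxia spleen replicate 4, which held the 7.47, it was 0.17 (adjusted p = 0.350). With the B cell markers as a covariate it passed as higher in spleen.

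The difference between tissues in the response was tested in 1 fit of all 39 arrays. Liver minus spleen, 3 of 21 members were called, against 9.3% of all probe sets tested. They were Bbc3, with a difference in response of -1.42 ± 0.16 (adjusted p = 6.57e-08), Bmf 1454880_s_at at -1.78 ± 0.27 (adjusted p = 1.29e-05) and Bid 1417045_at at -0.65 ± 0.18 (adjusted p = 0.0136). The other Bid probe set tested in this comparison, 1448560_at, was not called, at -0.46 (adjusted p = 0.108). Liver minus marrow, where 2.39% of all probe sets were called, 1 of 23 members was called, Bmf 1454880_s_at at -2.29 ± 0.35 (adjusted p = 3.77e-05). Both Bmf differences include the liver fall to a level under the dim limit. With the replicate block 3 members were called there. Bbc3 missed at -0.72 ± 0.21 (adjusted p = 0.0582). Leaving out hypoxia liver replicate 1 or vehicle liver replicate 5 brought that Bbc3 difference under the threshold. Spleen minus marrow, where 0.229% of all were called, none of 27 members was called, including Bbc3 at 0.70 (adjusted p = 0.222). Without hypoxia spleen replicate 4 the spleen minus marrow difference of Bbc3 was 0.81 (adjusted p = 0.0165). The rise of Bcl2l1 in liver was not shown to differ from spleen, with a difference of 0.32 for 1420888_at (adjusted p = 0.364).

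Markers of other cell types moved beside some of these results. In liver the neutrophil markers averaged 4.77 to 5.11 in vehicle and 4.86 to 5.98 in hypoxia, and 2 of 8 tested, S100a8 and S100a9, rose. With their mean as a covariate, 5 liver members were called, Bcl2l1 1420888_at higher at 0.40 (adjusted p = 0.0182), and Bbc3, Mcl1 1416880_at and Bmf 1454880_s_at and 1422995_at lower. The other 2 called Bcl2l1 probe sets were then at 0.47 (adjusted p = 0.0685) and 0.58 (adjusted p = 0.107). Mcl1 1437527_x_at (-0.55, adjusted p = 0.0784), 1456243_x_at (-0.46, adjusted p = 0.201) and 1456381_x_at (-0.53, adjusted p = 0.134) lost their calls too. In spleen the B cell markers averaged 11.11 to 11.78 in vehicle and 9.62 to 11.48 in hypoxia, and 2 of 7, Cd79b and Pax5, fell. The neutrophil markers there averaged 9.0 to 10.36 in vehicle and 8.68 to 12.02 in hypoxia, and 2 of 9, Cxcr2 and Mmp8, rose. The part of neutrophils in the spleen results was not tested. With the B cell mean as a covariate Bbc3 in spleen was 1.13 (adjusted p = 1.22e-05), the brightest Bcl2l11 probe set 0.77 (adjusted p = 7.36e-05), Bmf 0.77 (adjusted p = 0.000620) and Mcl1 1416880_at -0.46 (adjusted p = 0.000162). That covariate also called higher Bcl2 1422938_at, 1437122_at, 1440770_at and 1443837_x_at, Bid 1417045_at and 1448560_at, and Pmaip1 1418203_at. It gave 14 members higher, against 7 in the main fit, and over all probe sets 2470 against 2079. With the erythroid mean instead, Bid 1417045_at and Bcl2 1422938_at gained calls and 9 members were higher.

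Spleens varied in their erythroid and B cell markers, the cells known to depend on BCL-XL and BCL2. Bcl2l1 1420888_at was set against the mean of 7 erythroid markers, which ran from 8.95 to 11.70 in vehicle and from 10.29 to 11.61 in hypoxia. Pearson's r was 0.86 over 8 vehicle spleens (exact permutation p = 0.00521) with Spearman's rho 0.83 (exact permutation p = 0.0154), and without the 2 spleens farthest from the median marker level r was 0.73. Over 8 hypoxia spleens r was 0.85 (exact permutation p = 0.00608) and rho 0.90 (exact permutation p = 0.00456). There r was 0.58 without 2 spleens, so this relation leans on those spleens. With the mean of the tested Bcl2l1 probe sets, r was 0.93 in vehicle (exact permutation p = 0.000694, 0.94 without 2 spleens). In hypoxia that mean gave r 0.86 (exact permutation p = 0.00724, 0.72 without 2 spleens) and rho 0.76 (exact permutation p = 0.0368). Bcl2 1457687_at was set against 7 B cell markers. Its r was 0.86 (exact permutation p = 0.00694) and rho 0.81 (exact permutation p = 0.0218) in vehicle, with r at 0.49 without 2 spleens, so for this probe set the relation rests on those spleens. In hypoxia r was 0.78 (exact permutation p = 0.0291) and rho 0.40 (exact permutation p = 0.327), with r at 0.85 without 2 spleens. With the mean of the tested Bcl2 probe sets in its place, r was 0.94 in vehicle (exact permutation p = 0.000744, 0.78 without 2 spleens, rho 0.86, exact permutation p = 0.0107) and 0.94 in hypoxia (exact permutation p = 0.00248, 0.88 without 2 spleens, rho 0.90, exact permutation p = 0.00456). Adjusted over the 4 relations of single probe sets, the Pearson p-values were 0.00926, 0.00926, 0.00926 and 0.0291, and the Spearman ones 0.0290, 0.0183, 0.0290 and 0.327. Each set of replicate numbers held 4 spleens per group, too few for a value of its own.

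**Figure D4:**
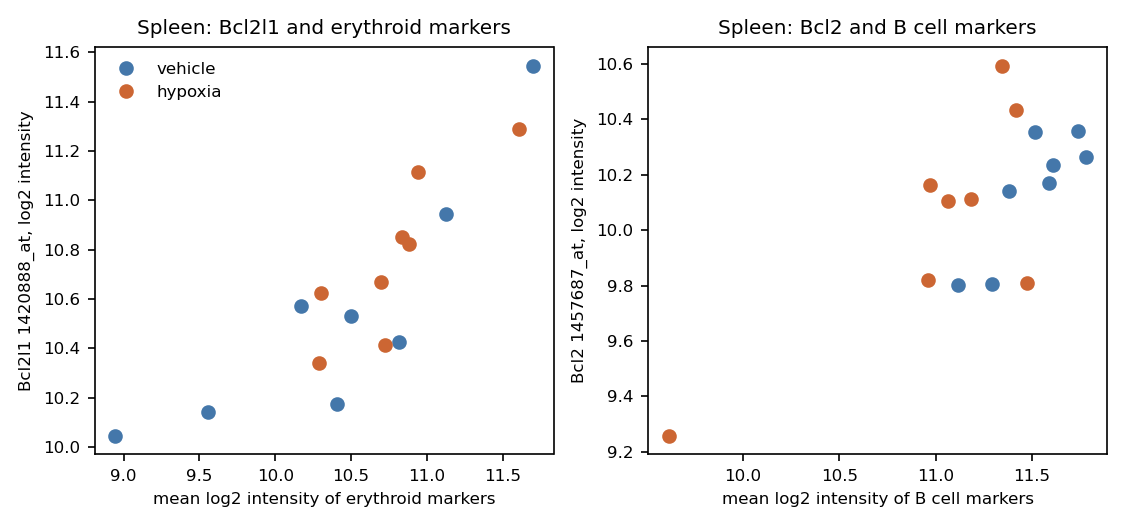
Log2 intensity in each spleen of Bcl2l1 1420888_at against the mean of the erythroid markers (left) and of Bcl2 1457687_at against the mean of the B cell markers (right), vehicle in blue and hypoxia in orange. The hypoxia spleen at a B cell level of 9.62 is replicate 4, which also has the lowest Bcl2 value, 9.26.

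The genes most like 2 of the called members were taken by Pearson's r over the 16 arrays of a tissue, which all share the treatment contrast. In liver the profiles most like Bcl2l1 1420888_at were those of Parp16 (0.907), Maff (0.899) and Gja4 (0.896). In spleen the profiles most like Bbc3 were those of Sesn1 (0.956), Nfkbib (0.943) and Mybpc2 (0.938).

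Among other BCL2 family genes, each taken by its brightest probe set, 1 of 10 tested was higher and 2 lower in liver, 1 of 11 was higher in marrow, and 2 of 11 were higher and 2 lower in spleen. Over all probe sets 4.51% were higher and 6.2% lower in liver, 2.74% and 3.4% in marrow, and 8.5% and 12.1% in spleen. Bnip3, a mitochondrial BH3-like protein of mitophagy and a textbook HIF target, rose in all 3 tissues, by 0.70 ± 0.13 (adjusted p = 0.000964) in liver, 0.77 ± 0.11 (adjusted p = 0.00913) in marrow and 0.75 ± 0.12 (adjusted p = 0.000267) in spleen. Bik, a BH3-only gene, fell in liver by 1.15 ± 0.14 (adjusted p = 1.14e-05), with no overlap between 8 vehicle and 8 hypoxia livers. Bcl2l2, which encodes the anti-apoptotic BCL-W, fell in liver by 0.37 ± 0.08 (adjusted p = 0.00540) and in spleen by 0.56 ± 0.07 (adjusted p = 3.25e-05). In spleen Bcl2l15 also rose, by 0.50, and Bcl2l12 fell by 0.35.

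The death receptor genes, which feed the same pathway through BID, had 3 of 9 tested lower and none higher in liver, 3 of 8 lower and none higher in marrow, and 4 of 9 lower and 1 higher in spleen. Over all probe sets 6.2%, 3.4% and 12.1% were lower. Cflar, which encodes the caspase 8 inhibitor FLIP, fell in liver by 0.73 ± 0.10 (adjusted p = 5.06e-05), in marrow by 0.59 ± 0.11 (adjusted p = 0.0196) and in spleen by 0.67 ± 0.09 (adjusted p = 4.77e-05), with no overlap in any of them. Traf2, a signalling adaptor of TNF receptors, fell in all 3 tissues, by 0.44, 0.41 and 0.58. Tnf fell in marrow by 0.47 and in spleen by 0.40, Tnfsf10 fell in liver by 0.51, Fas fell in spleen by 0.41, and Fasl, the 1 higher gene, named after its value was seen, rose in spleen by 0.37. The list's median change was -0.06 in liver, -0.28 in marrow and -0.27 in spleen.

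Downstream, 1 of 15 caspase and apoptosome genes was lower in liver, 1 of 16 was higher and 1 lower in marrow, and 1 of 16 was higher and 2 lower in spleen. Over all probe sets 10.7%, 6.14% and 20.6% were called. Casp8, the initiator caspase that cleaves BID, fell by 0.41 in marrow and by 0.33 in spleen. Xiap and Birc2, which encode inhibitors of apoptosis, fell by 0.36 in spleen and by 0.38 in liver, while Birc3, another, rose by 0.67 in marrow. Endog, a mitochondrial nuclease, rose by 0.30 in spleen.

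Among regulators of BCL2 family transcription, 4 of 18 tested were higher in liver, 3 of 17 in marrow and 2 of 17 in spleen, and none was lower. Over all probe sets 4.51%, 2.74% and 8.5% were higher in these tissues, and 6.2%, 3.4% and 12.1% lower. Foxo1 and Foxo3, the forkhead factors whose core motif was searched above, rose in liver by 0.83 ± 0.15 (adjusted p = 0.00112) and 0.60 ± 0.13 (adjusted p = 0.00419). They were not called in spleen, at 0.11 (adjusted p = 0.705) and 0.34 (adjusted p = 0.301). Jun, an AP-1 subunit, rose in liver by 3.07 and in marrow by 0.91, Atf4 rose in liver by 0.26, and Egr1 rose in marrow by 1.53. Klf9, a glucocorticoid-induced factor, rose in marrow by 1.82 and in spleen by 1.19, and Myc rose in spleen by 0.43. Of 7 genes in a list made for MCL1 turnover, only Trib1, a pseudokinase that recruits ubiquitin ligases, was called. It rose by 0.88 in liver and 0.29 in spleen. Whether Trib1 acts on MCL1 was not tested, and none of the other listed genes was called in any tissue.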

How the data were processed

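RNA of 39 samples was hybridised to 39 Affymetrix arrays. Marrow RNA was isolated with a Paxgene kit and liver and spleen RNA on columns, per the labels' protocols. The deposited values were linear intensity values per probe set, from 5.776 to 43830, made with RMA, per the submitters' processing notes, which also name limma. No version is given in the sources used here. RMA corrects background, normalizes and summarises probes, so it pulls arrays to a common distribution and compresses low signals. No depth or detection call was used, and the number of arrays limits the precision.

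The log2 of each intensity was used as it stood. Of 45101 probe sets, 932 with several symbols, 9211 with none and the named ones among 64 controls were left out. The remaining 34945 included 34741 whose gene ID was in the RefSeq gene list of GRCm38.p6, and 0 symbols changed. Probe sets below the 30th percentile of the tissue mean (4.50, 5.25 and 5.08 in liver, marrow and spleen) were left out as dim. Each tissue was fitted alone, without covariates, by lmFit and two-sided eBayes of limma 3.58.1 (R 4.3.3, data.table version 1.17.8), and differences between tissues were interaction contrasts. Every adjusted p not called exact is from limma with Benjamini-Hochberg adjustment. The scripts were tested on simulated data.

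The members, gene lists and tests were chosen with earlier results of these data known. Named genes were all members, led by the brightest probe set per tissue, up to 4 called genes of smallest p per other list, and for pattern likeness the 3 closest genes of the member of smallest p among those whose brightest probe set was called, in liver and in spleen.

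Same-numbered liver arrays deviated from their group means together, with correlations of 0.11 to 0.50, so by the rule used the numbers pair the livers. The numbers come from the titles, which state no shared animal. The rule was not met in marrow (0.01 to 0.23) or spleen (-0.46 to 0.39). Alternatives covered the dim filter, probe set choice, normalization, centring, offset, variance prior, array set, replicate block, marker covariates, an exact Wilcoxon test and each array left out.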

Additional observations from a re-analysis of the deposited data

Results flagged for a closer look

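In 9 of 75 groups of member values, 1 sample lay farther from the rest than expected in about 1 of 20 groups by chance (Dixon's criterion). Hypoxia spleen replicate 4 accounted for 6 of them, with 7.85 for Bbc3, 7.68 for Bcl2l11 1435449_at, 9.10 for Bid 1417045_at, 12.16 for Mcl1 1448503_at, 10.80 for Mcl1 1416880_at and 7.47 for Pmaip1, each the lowest of its group. This spleen also had the lowest B and T cell markers, whose part in these values was not tested. The other 3 were Bmf 1454880_s_at at 7.08 in vehicle liver replicate 4, Mcl1 1448503_at at 10.65 in hypoxia liver replicate 3, both the highest of their group, and Bid 1417045_at at 9.60 in hypoxia marrow replicate 3, the lowest.

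The response to hypoxia differed between tissues by test for 4 comparisons. They were Bmf 1454880_s_at between liver and marrow (-2.29) and between liver and spleen (-1.78), both including a liver fall to a level under the dim limit, Bbc3 between liver and spleen (-1.42) and Bid 1417045_at between liver and spleen (-0.65).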

How the results depend on the processing

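No called member reversed its direction under any alternative, over 1274 member results with other settings (33 gained and 25 lost a call) and 2825 with 1 array left out (17 gained and 24 lost). Members called higher in liver numbered 5 with no filter on dim probe sets, 0 within replicates 1 to 4 and 1 with the neutrophil covariate, and those called lower 3 within replicates 1 to 4. In liver the replicate block called 4083 of all probe sets, the array set term 4533, replicates 1 to 4 alone 1349 and the neutrophil covariate 1489. With the replicate block 5 members were higher in marrow (gaining Mcl1 1416881_at and Bcl2l11 1435449_at) and Bmf 1454880_s_at lost its spleen call (adjusted p = 0.0778). The labels do not state that the numbers pair the samples. Beyond these and the calls given with the results, the block changed only differences between tissues (Bid 1448560_at for liver minus spleen, Bmf 1422995_at and Mcl1 1456381_x_at for liver minus marrow). In spleen replicates 1 to 4 alone gave 2 members higher, 2 lower and 1283 of all probe sets, and the B cell covariate 14 higher. For differences between tissues, the array set term called 3189 probe sets for liver minus spleen, 1061 (5 members lower, 3 with the replicate block) for liver minus marrow and 85 for spleen minus marrow, where no filter gave 82 and an offset of 16 gave 109. With 1 array left out, marrow gave 1 to 2 members higher and 559 to 1448 of all probe sets, and spleen 6 to 11 members higher. Liver minus marrow then gave 1 to 2 members lower and 280 to 686 of all, liver minus spleen 3 to 5 lower, and spleen minus marrow 0 to 1 higher and 22 to 93 of all. Replicates 1 to 4 alone are fewer samples. The cause of the other shifts was not tested. The fit with 1 probe set per gene gives no count of member probe sets.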
